A study of Mus musculus with 17 samples.

Results

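The microRNAs (miRNAs) miR-21a-5p, miR-210-3p, miR-221-3p and miR-222-3p were followed in mouse serum as 4 miRNAs often linked to tumors. They were chosen by assay name, with earlier results of these data known. They make up 4 of the 365 assays in the table, of which 357 are for miRNAs. All 4 gave a value in all 17 sera, and the panel held no assay for another arm, a paralogue or the rat form of any of them.

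The sera came from 7 AT-ATX mice that had developed spontaneous tumors, 7 AT-ATX mice without tumors and, as healthy controls, 3 FVB/N wild-type mice. AT-ATX mice carry a transgene for Autotaxin, the secreted enzyme that produces lysophosphatidic acid, a lipid signal. Total RNA from 50 µL of serum, taken at necropsy, was measured by SYBR Green real-time PCR over 40 cycles on a pair of ready-made serum miRNA plates, and all 4 assays lay on the same plate. Each sample is named as 1 mouse, so the replicates are animals. The promoter of the transgene and the ages of the mice are not given in the sources used here, a strain is named for the wild-type mice only, and tumor replicate 5 carries a question mark in its label and was kept in its labelled group. The tumor and tumor-free groups share the transgene and differ by tumor status, while either of them against wild type differs by the transgene as well. Whether the tumor and tumor-free groups also differ in age or origin is not known, so tumor status cannot be told apart from these.

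A miRNA is cut from a hairpin transcript, and the seed near its 5′ end pairs with messenger RNAs and lowers their output. miR-21 is raised in many solid tumors and represses the tumor suppressor Pdcd4, miR-210 is induced in low oxygen by hypoxia-inducible factor, and miR-221 and miR-222 repress the cell cycle inhibitor p27 and the receptor Kit. In blood, miRNAs travel in vesicles and protein complexes, and blood cells that break during collection add their own miRNAs to the serum.

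The mature sequences are shown because the seeds decide which of the 4 share targets and because miR-221-3p and miR-222-3p, which behaved differently in these sera, have the same seed and lie at the same locus. They are from RefSeq on GRCm38.p6, read 5′ to 3′, all from the minus strand, with the seed (bases 2 to 8) in capitals.
mmu-miR-21a-5p (chr11:86584120-86584141): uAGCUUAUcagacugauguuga
mmu-miR-210-3p (chr7:141221407-141221428): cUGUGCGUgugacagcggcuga
mmu-miR-221-3p (chrX:19146307-19146329): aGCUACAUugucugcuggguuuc
mmu-miR-222-3p (chrX:19146901-19146923): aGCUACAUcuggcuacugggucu

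miR-221-3p and miR-222-3p have the same seed and carry the same base at 11 of 23 positions, compared without gaps. Outside the seed they match at 4 of 16 positions in the same comparison, which allows no shift. Both carry the run cugggu toward the 3′ end, at different positions, so such a comparison does not line it up. Among 1679 mature miRNAs in the RefSeq table, miR-1928 is the only other one with that seed, and it has no assay on the panel. The seed of miR-21a-5p is shared with miR-21c, which has no assay here either, and that of miR-210-3p is shared with no other mature miRNA in the table. GC content was 36.4% for miR-21a-5p, 63.6% for miR-210-3p, 47.8% for miR-221-3p and 52.2% for miR-222-3p.

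The hairpins of Mir221 and Mir222 lie 504 bases apart on the X chromosome and are printed to show how the measured arm, in capitals, sits at the 3′ side of both.
Mir221 (chrX:19146294-19146388): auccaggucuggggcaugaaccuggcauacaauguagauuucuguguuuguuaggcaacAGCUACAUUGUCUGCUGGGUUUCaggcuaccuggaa
Mir222 (chrX:19146893-19146971): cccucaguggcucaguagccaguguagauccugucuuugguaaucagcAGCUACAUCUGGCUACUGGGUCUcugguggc

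The deposited values are quantification cycles (Ct), in which 1 cycle less stands for about 2 times as much starting template. Below, the level of a miRNA is how far its Ct lay under the average Ct of the 252 miRNA assays that gave a value in every serum, on a log2 scale. Such a level is relative to the rest of the panel, and release of a miRNA into serum cannot be told apart from its amount in the cells of origin. Between 312 and 356 miRNA assays were detected per serum. The average Ct of the shared assays had a median of 29.8 in tumor mice, 29.3 in tumor-free mice and 28.1 in wild-type mice. Group differences were tested with limma over 338 assays, and a p-value was adjusted over all of them with the Benjamini-Hochberg method, with a threshold of 0.05. The 3 comparisons share groups and are not independent of each other.

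All 4 miRNAs stood higher on average in tumor mice than in tumor-free mice, by 1.54 to 2.03 times, and none of these differences passed after adjustment over the panel. Against wild type the 4 parted. In levels relative to the panel, miR-21a-5p and miR-221-3p were above every wild-type mouse in all 7 tumor mice. The same held for 5.33% of all assays. The level of miR-210-3p overlapped, and that of miR-222-3p was highest on average in wild-type mice. In the deposited Ct, tumor and wild-type mice overlapped for miR-21a-5p (20.37 to 23.77 and 20.59 to 24.31 cycles). They also overlapped for miR-221-3p (25.89 to 29.13 and 25.98 to 29.36 cycles).

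mmu-miR-21a-5p was among the assays with the lowest Ct in every group, with a mean of 22.5 cycles over the 17 sera, the fourth lowest of the 252 assays. Its level was lowest at 6.90, median 7.33 and highest at 8.04 in tumor mice, and 5.84, 6.58 and 7.20 at the same points in tumor-free mice. The 3 wild-type mice had 6.41, 6.59 and 5.67. All 7 tumor mice lay above the median of the tumor-free mice and 4 of 7 lay above all of them, while tumor-free and wild-type mice overlapped. The group means were 7.42 ± 0.43 in tumor mice, 6.53 ± 0.41 in tumor-free mice and 6.22 ± 0.49 in wild-type mice (SD, n = 7, 7 and 3).

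The log2 difference of miR-21a-5p between tumor and tumor-free mice was 0.89 (SE 0.32, 95% interval 0.23 to 1.55, 1.86-fold, limma adjusted p = 0.135). Against wild type, tumor mice differed by 1.20 (SE 0.41, 95% interval 0.35 to 2.05, 2.30-fold, limma adjusted p = 0.0668), with all 7 above all 3. Tumor-free mice differed from wild type by 0.31 (SE 0.41, 95% interval -0.54 to 1.16, adjusted p = 0.659). With quantile normalization in place of the panel mean, the difference was 0.16 between tumor and tumor-free mice, 1.36 between tumor and wild-type mice (adjusted p = 0.0837) and 1.21 between tumor-free and wild-type mice (95% interval 0.23 to 2.18, adjusted p = 0.21).

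mmu-miR-210-3p, the miRNA of the low-oxygen response, had a level of 1.06 at its lowest, 2.19 at the median and 3.01 at its highest in tumor mice. In tumor-free mice these points were 0.20, 1.11 and 1.71, and the wild-type mice had 1.39, 2.46 and 1.59. Tumor-free mice were thus the low group: 4 of 7 tumor mice were above all of them, and 5 of 7 tumor-free mice were below all wild-type mice. The means were 2.05 ± 0.77 in tumor mice, 1.02 ± 0.54 in tumor-free mice and 1.81 ± 0.57 in wild-type mice.

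The difference of miR-210-3p between tumor and tumor-free mice was 1.02 (SE 0.39, 95% interval 0.22 to 1.83, 2.03-fold, limma adjusted p = 0.161). Tumor-free mice differed from wild type by -0.79 (SE 0.50, adjusted p = 0.37). Tumor mice differed from wild type by 0.24 (SE 0.50, 95% interval -0.80 to 1.28, adjusted p = 0.815), within the spread of both groups.

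mmu-miR-221-3p had a level of 1.16 at its lowest, 1.96 at the median and 2.85 at its highest in tumor mice. In tumor-free mice these points were 0.91, 1.24 and 1.82, and the wild-type mice had 1.02, 0.52 and 0.61. The tumor mice were spread unevenly, with 4 of 7 above every tumor-free mouse and the other 3 between 1.16 and 1.19, below the tumor-free median. The means were 1.91 ± 0.74 in tumor mice, 1.29 ± 0.30 in tumor-free mice and 0.72 ± 0.27 in wild-type mice.

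The difference of miR-221-3p was 0.63 between tumor and tumor-free mice (SE 0.34, 95% interval -0.09 to 1.35, limma adjusted p = 0.379). It was 1.19 between tumor and wild-type mice (SE 0.45, 95% interval 0.26 to 2.12, 2.29-fold, adjusted p = 0.0982), with all 7 above all 3. Between tumor-free and wild-type mice it was 0.57 (SE 0.45, adjusted p = 0.456), with 5 of 7 above all wild-type mice.

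mmu-miR-222-3p, encoded beside miR-221, had its highest mean level in wild-type mice. Its level was 2.09 at the lowest, 3.05 at the median and 4.53 at the highest in tumor mice, and 1.98, 2.47 and 3.31 at the same points in tumor-free mice. The wild-type mice had 3.29, 4.67 and 3.74. In 6 of 7 tumor-free mice the level lay below all wild-type mice, and the seventh, at 3.31, lay just above the lowest of them. The means were 3.31 ± 0.90 in tumor mice, 2.49 ± 0.43 in tumor-free mice and 3.90 ± 0.71 in wild-type mice.

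The difference of miR-222-3p was 0.82 between tumor and tumor-free mice (SE 0.40, 95% interval -0.03 to 1.66, limma adjusted p = 0.308). Tumor-free mice differed from wild type by -1.41 (SE 0.52, 95% interval -2.50 to -0.32, 2.66-fold lower, limma adjusted p = 0.157). Tumor mice differed from wild type by -0.59 (SE 0.52, adjusted p = 0.525).

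**Figure D1:**
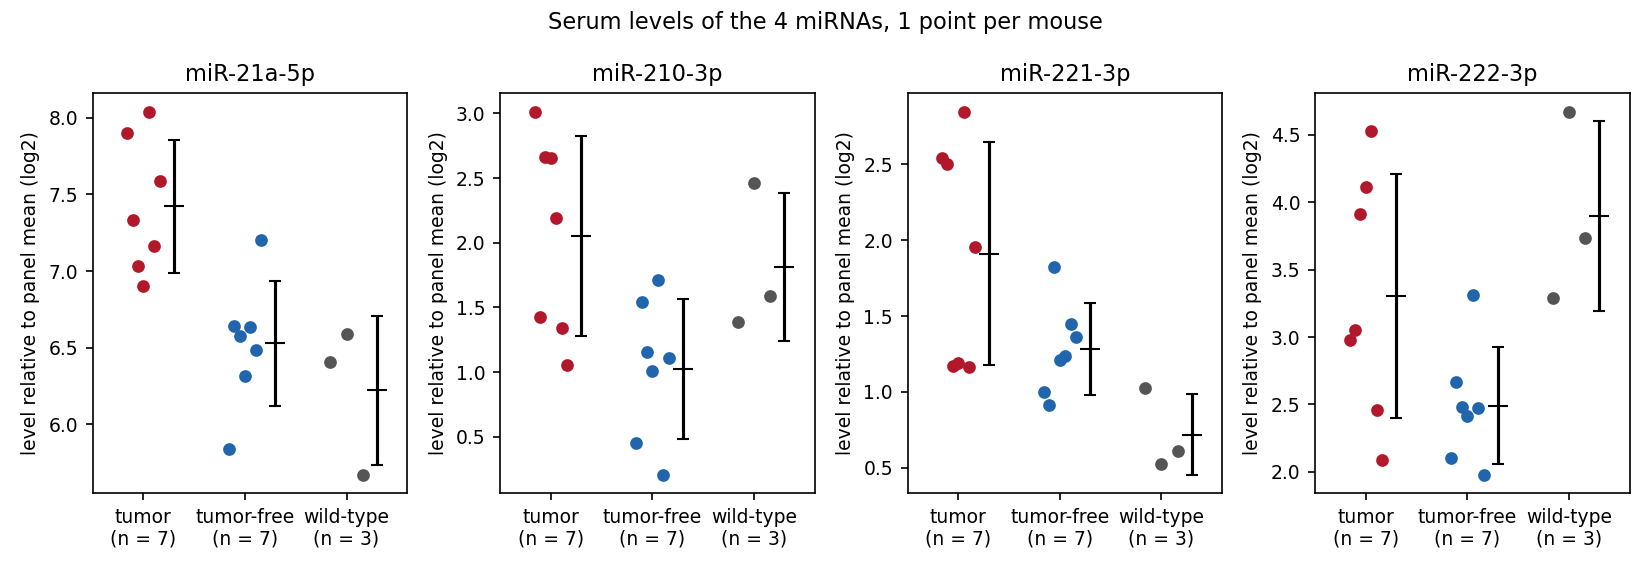
Level of each miRNA relative to the panel mean (vertical axis, log2) in 7 tumor, 7 tumor-free and 3 wild-type mice, 1 point per mouse, with mean and SD in black beside the points. miR-21a-5p and miR-221-3p of all 7 tumor mice lie above all wild-type mice, while miR-222-3p is highest on average in the wild-type mice.

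Over the panel, limma called 1.48% of the 338 assays between tumor and tumor-free mice, 0.592% between tumor-free and wild-type mice and 8.28% between tumor and wild-type mice, and 0 of the 4 miRNAs in each. At an unadjusted p under 0.05, 2 of the 4 were higher in tumor than in tumor-free mice, against 7.99% of all assays. On the same footing, 1 of 4 was lower in tumor-free than in wild-type mice, against 10.1% of all assays, and 2 of 4 were higher in tumor than in wild-type mice, against 14.5%. The 2 miRNAs whose tumor mice all lay above all wild-type mice stand beside 5.33% of all assays that did so. Since the 4 were chosen with earlier results of these data known, these shares are a description and not a test. The median difference of all assays was 0.14 between tumor and tumor-free mice, 0.03 between tumor-free and wild-type mice and 0.19 between tumor and wild-type mice.

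The 4 varied less from mouse to mouse than most of the panel. The residual SD within groups was 0.43 for miR-21a-5p, 0.65 for miR-210-3p, 0.53 for miR-221-3p and 0.71 for miR-222-3p, against a median of 0.91 over all tested assays. Only 1.48% of assays varied less than miR-21a-5p. By mean Ct the 4 ranked 4, 74, 76 and 48 from the lowest of the 252 shared assays, in the same order. Their spread was not compared with that of assays of like Ct.

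The differences from wild type depended on what the levels were set against, and those between tumor and tumor-free mice kept their direction. With raw Ct, tumor mice stood above tumor-free mice by 0.53 for miR-21a-5p, 0.66 for miR-210-3p, 0.27 for miR-221-3p and 0.46 for miR-222-3p, and the mean over 4 reference miRNAs (miR-103-3p, miR-191-5p, miR-93-5p and miR-423-5p) gave 0.55, 0.68, 0.28 and 0.47. All 95% intervals of these values in limma spanned 0 (adjusted p from 0.453 to 0.995). These scalings move every assay with a value in all sera by the same amount, here by -0.36 with raw Ct and -0.34 with the reference miRNAs. Both shifts were smaller than the smallest difference with the panel mean (0.63 for miR-221-3p), so no sign could turn. Counted from the median of all assays, miR-21a-5p stood 0.75 higher in tumor than in tumor-free mice with the panel mean and 0.77 higher with raw Ct. A common shift leaves such a value nearly unchanged by construction. Quantile normalization, which can change the place of an assay in the panel, gave 0.15. Against wild type, raw Ct shifted the median of all assays by -1.07 in tumor-free mice and by -1.22 in tumor mice, and spike-in RNAs by -1.12 and -0.94. Under raw Ct the sign turned for miR-21a-5p and miR-221-3p in both comparisons with wild type (-0.71 and -0.45 in tumor-free mice, -0.18 and -0.19 in tumor mice), and for miR-210-3p in tumor mice (-1.14). Counted from the median of all assays, where a common shift nearly cancels, tumor mice differed from wild type by 1.01 with the panel mean and 1.03 with raw Ct for miR-21a-5p. For miR-221-3p these values were 1.00 and 1.03. Quantile normalization gave 1.42 for miR-21a-5p and 1.15 for miR-221-3p. For miR-21a-5p in tumor-free mice the values were 0.28 with the panel mean, 0.36 with raw Ct, 0.34 with spike-ins and 1.36 with quantile normalization. miR-222-3p stayed below wild type under the panel mean, reference miRNAs, raw Ct and spike-ins, with differences from -2.49 to -0.92 in tumor-free mice.

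**Figure D2:**
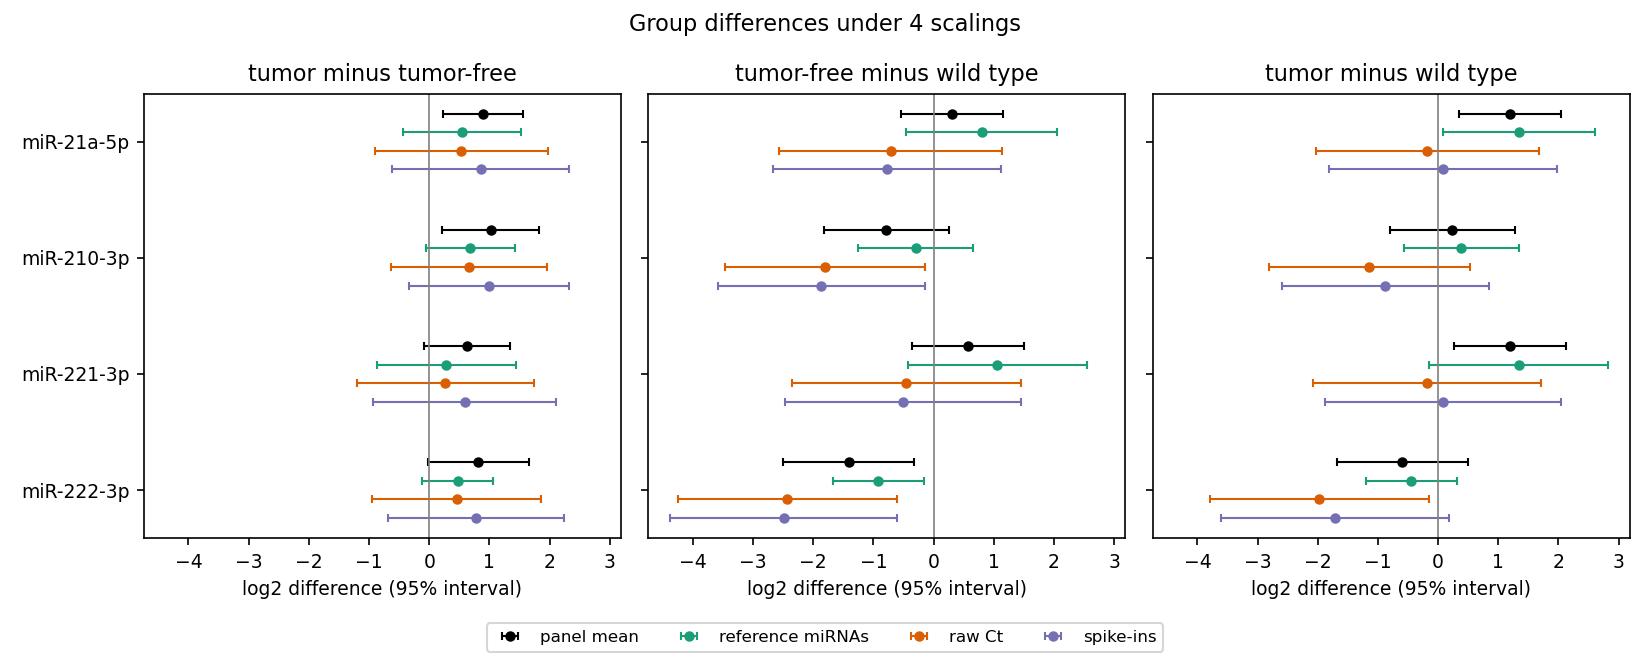
Log2 difference with its 95% interval from limma for each miRNA in the 3 comparisons (panels), with levels set against the panel mean, 4 reference miRNAs, nothing (raw Ct) or 4 spike-ins (colors). Between tumor and tumor-free mice all 16 points lie above 0, from 0.27 to 1.02, while against wild type raw Ct and spike-ins move miR-21a-5p and miR-221-3p toward or below 0. The scalings shift all 4 miRNAs alike, by too little to turn a sign between tumor and tumor-free mice.

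Without tumor replicate 5, whose label has a question mark, the 4 differences between tumor and tumor-free mice were 0.79 for miR-21a-5p, 1.00 for miR-210-3p, 0.47 for miR-221-3p and 0.61 for miR-222-3p. That mouse had the highest level of miR-21a-5p, miR-221-3p and miR-222-3p among the tumor mice. In 4 sera, tumor replicate 1 and tumor-free replicates 4, 5 and 7, the last decimals of the values follow 1 pattern where the other sera have 2. Without these 4 the differences between tumor and tumor-free mice were 0.96, 1.05, 0.51 and 0.93 for miR-21a-5p, miR-210-3p, miR-221-3p and miR-222-3p, and whether the pattern marks a separate run was not tested.

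Markers of hepatocytes and platelets were read in the same sera. Between tumor and tumor-free mice 4 of 4 hepatocyte miRNAs lay below 0, while 55.6% of all assays lay above it. Of the 4, 1 passed, against 1.48% of all assays. The mean level of the hepatocyte list ran from 2.03 to 3.98 in tumor mice and from 3.77 to 4.96 in tumor-free mice. Against wild type, where that level was 4.19 to 5.65, 3 of 4 passed lower in tumor mice, against 8.28% of all assays that passed in either direction. Between tumor and wild-type mice miR-223-3p of the platelet list was higher by 1.96 (SE 0.56, limma adjusted p = 0.0333). It was the only 1 of 6 that passed, against 8.28% of all assays. Above 0 lay 4 of 6, against 54.1% of all assays, with miR-126a-3p at -0.90 and miR-191-5p at -0.03. Between tumor and tumor-free mice 4 of 6 platelet miRNAs lay above 0 and limma called 0 (0 at an unadjusted p under 0.05). The mean level of the list was 3.40 to 5.03 in tumor mice, 3.76 to 4.48 in tumor-free mice and 2.66 to 4.26 in wild-type mice. Their part in the differences of the 4 miRNAs was not tested.

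Because miR-221-3p and miR-222-3p share a locus, a plate and a seed, their Ct difference within each serum was examined, which needs no normalization. The Ct of miR-221-3p minus that of miR-222-3p was 0.13 at its lowest, 1.30 at the median and 2.92 at its highest in tumor mice, and 0.62, 1.10 and 2.07 at the same points in tumor-free mice. The wild-type mice had 2.26, 4.15 and 3.12 cycles. No tumor-free mouse reached any wild-type mouse, and 2 of 7 tumor mice, replicates 3 and 4, lay within the range of the wild-type mice. The size of a gap between 2 assays is not a ratio of amounts, since the efficiencies of the assays are not known, but a change of the gap between sera can be compared.

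The gap was 1.39 ± 1.12 cycles in tumor mice, 1.20 ± 0.54 in tumor-free mice and 3.18 ± 0.94 in wild-type mice (SD, n = 7, 7 and 3). Tumor-free mice differed from wild type by -1.98 cycles (exact permutation p = 0.00833, the smallest that 7 mice against 3 allow, adjusted p = 0.075 over 18 tests). Tumor mice differed from wild type by -1.79 cycles (exact permutation p = 0.0583, adjusted p = 0.175) and from tumor-free mice by 0.19 cycles (exact permutation p = 0.686, adjusted p = 0.824). Among 31626 pairs of assays of the panel, 19.2% had as large a gap difference between tumor-free and wild-type mice, and the groups failed to overlap in 12.9%. A shift of this size between tumor-free and wild-type mice was therefore common among pairs of assays.

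Of the other pairs, 3 had an unadjusted exact p under 0.05 against wild type, and each set miR-222-3p or miR-210-3p against miR-21a-5p or miR-221-3p. Differences of these sizes were common on the panel, where 25.4% to 46% of pairs of assays had as large a one in the same comparison. The Ct of miR-21a-5p minus that of miR-222-3p differed by -1.71 cycles between tumor-free and wild-type mice (exact permutation p = 0.00833, adjusted p = 0.075, no overlap) and by -1.79 cycles between tumor and wild-type mice (exact permutation p = 0.0417, adjusted p = 0.15). The Ct of miR-21a-5p minus that of miR-210-3p differed by -1.09 cycles between tumor-free and wild-type mice (exact permutation p = 0.0167, adjusted p = 0.1), and the Ct of miR-210-3p minus that of miR-221-3p by 1.35 cycles (exact permutation p = 0.0333, adjusted p = 0.15). Between tumor and tumor-free mice all 6 gaps differed by 0.40 cycles or less in either direction, with exact permutation p from 0.247 to 0.863. Of the 18 tests 0 passed after adjustment, while an unadjusted p under 0.05 was found in 5.

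From mouse to mouse, in levels relative to the panel, 2 pairs passed by r but not by rho. Neither was the pair of the shared locus. After subtraction of group means, miR-21a-5p levels went with that of miR-221-3p (r = 0.61, p = 0.0151 by permutation, adjusted p = 0.0453 over 6 pairs; Spearman's rho = 0.60, p = 0.0207 by permutation, adjusted p = 0.0621, n = 17). The level of miR-210-3p went with that of miR-222-3p (r = 0.67, p = 0.0148 by permutation, adjusted p = 0.0453; Spearman's rho = 0.66, p = 0.0125 by permutation, adjusted p = 0.0621). Without the 2 mice farthest from the median of the second miRNA of each pair, r was 0.51 and 0.66. Leaving out 1 mouse at a time lost the call in 13 of 17 fits for miR-21a-5p with miR-221-3p and in 12 of 17 for miR-210-3p with miR-222-3p. Within the tumor mice r was 0.88 for the first pair and 0.64 for the other, and within the tumor-free mice 0.32 and 0.60.

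miR-221-3p and miR-222-3p had an r near 0 in levels relative to the panel (r = -0.0036, p = 0.992 by permutation; Spearman's rho = -0.04, p = 0.89 by permutation, r = -0.32 without the 2 farthest mice). With raw Ct, which keeps the amount of RNA in each serum, r was 0.74 for them, and it was 0.77 against spike-ins. The other pairs had r = 0.25 (miR-21a-5p and miR-210-3p), 0.07 (miR-21a-5p and miR-222-3p) and -0.08 (miR-210-3p and miR-221-3p), with adjusted p from 0.73 to 0.97.

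The 3 assays closest to each miRNA, by r of levels over the 17 sera among the 252 shared assays, are given as a description. For miR-21a-5p they were miR-361-5p (r = 0.76), miR-532-5p (0.76) and miR-500-3p (0.74), with miR-221-3p sixth. For miR-210-3p they were miR-9-5p (0.87), miR-484 (0.77) and miR-18a-3p (0.75), with miR-222-3p twelfth. For miR-221-3p they were the rat assay of miR-28-3p (0.68), miR-22-3p (0.67) and miR-365-3p (0.65), with miR-222-3p at rank 130. For miR-222-3p they were miR-3107-5p (0.95), miR-18a-3p (0.94) and miR-93-5p (0.93), with miR-221-3p at rank 126. RefSeq lists mir-486b as another name of Mir3107, and miR-486 is abundant in red blood cells. miR-93-5p is also 1 of the 4 reference miRNAs above.

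Red blood cells are a known source of miRNA in serum, so the sera were compared by the hemolysis index, which is the Ct of miR-23a-3p less that of miR-451a and grows with red blood cell RNA. The index was 3.97 ± 1.97 cycles in tumor mice (2.21 to 7.09), 4.38 ± 0.84 in tumor-free mice (3.56 to 5.54) and 3.71, 7.82 and 5.28 in the wild-type mice. None of the 3 exact permutation tests of the index passed (adjusted p from 0.45 to 0.737 over 12 tests of sample measures). In levels, miR-23a-3p differed by 0.47 between tumor and tumor-free mice, 0.73 between tumor-free and wild-type mice and 1.20 between tumor and wild-type mice. For miR-451a the values were 0.06, -0.49 and -0.43, and neither miRNA passed in limma in any comparison. Group differences of the index thus also carry miR-23a-3p, which is on the platelet list. The red blood cell list had 4 of 6 members tested, and limma called 0 in each comparison (0, 1 and 0 at an unadjusted p under 0.05), with median differences of 0.33 between tumor and tumor-free mice, -1.02 between tumor-free and wild-type mice and -0.69 between tumor and wild-type mice. Its mean level ranged over 6.38 to 9.63 in tumor mice, 6.86 to 8.66 in tumor-free mice and 7.55 to 9.77 in wild-type mice, and its defining member miR-451a was detected in every serum.

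Of the 4, miR-222-3p had levels that went up with the index, and the other 3 did not pass. With group means taken off, r was 0.81 for miR-222-3p (p = 0.00214 by permutation, adjusted p = 0.00856 over 4 miRNAs; Spearman's rho = 0.79, p = 0.00178 by permutation, adjusted p = 0.00712, r = 0.77 without the 2 farthest mice, n = 17). It was 0.79 within the tumor mice and 0.67 within the tumor-free mice. For miR-210-3p r was 0.60 (p = 0.0296 by permutation, adjusted p = 0.0592; Spearman's rho = 0.56, p = 0.0406 by permutation, r = 0.51 without the 2 farthest), and without tumor replicate 1 it was 0.86 and passed. For miR-221-3p r was -0.52 (p = 0.0879 by permutation, adjusted p = 0.117; Spearman's rho = -0.55, p = 0.0539 by permutation, r = -0.40 without the 2 farthest), and without tumor replicate 5 it was -0.71 and passed. For miR-21a-5p r was -0.21 (p = 0.464 by permutation, adjusted p = 0.464; Spearman's rho = -0.26, p = 0.372 by permutation, r = -0.18 without the 2 farthest).

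Many assays followed the index in levels relative to the panel. Of the 252 shared assays 77 had r above 0.5 and 69 had r below -0.5, and 12.3% had a higher r than miR-222-3p. With raw Ct or spike-ins r of miR-222-3p with the index was 0.36 or 0.35 and did not pass.

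**Figure D3:**
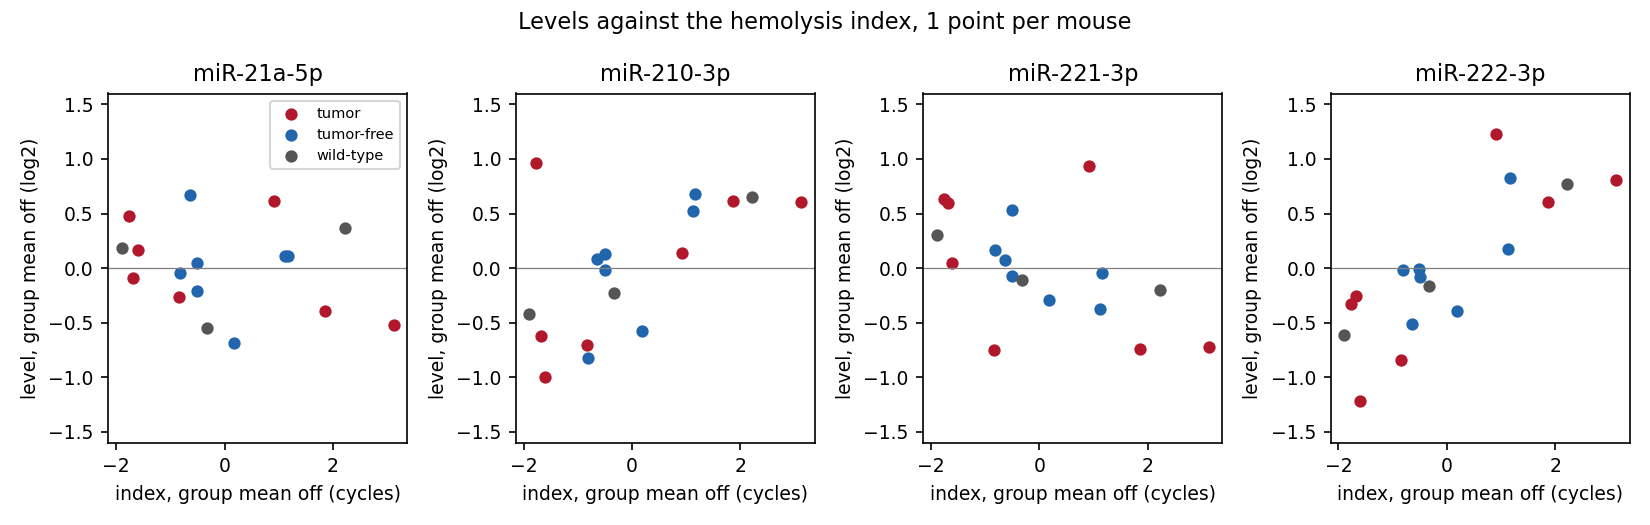
Level of each miRNA (vertical axis, log2) against the hemolysis index (horizontal axis, cycles), both with group means taken off, 1 point per mouse and 1 color per group. The points of miR-222-3p climb with the index (r = 0.81), those of miR-221-3p lean the other way (r = -0.52) and those of miR-21a-5p show no slope that passed (r = -0.21).

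The gap between miR-221-3p and miR-222-3p, which rests on no scaling, followed the index closely. This relation was chosen after the values were seen. With group means taken off, r was 0.96 (p = 1e-05 by permutation, the lowest value that 100000 reorderings can return, adjusted p = 6e-05 over 6 pairs of miRNAs; Spearman's rho = 0.93, p = 2e-05 by permutation, adjusted p = 0.00012, n = 17). It was 0.97 within the tumor mice, 0.89 within the tumor-free mice and 0.94 without the 2 farthest mice, and leaving out each mouse in turn gave 0.94 to 0.96. The gap and the index are both differences between Ct values of 1 serum, and they share no assay. The gap widened by 0.53 cycles per cycle of the index. Of the 31626 pairs of assays, 79 (0.25%) had as large an r in size.

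The parts of the index, and miR-144-3p and miR-16-5p of the red blood cell list, gave values of like size. The remaining tested member of that list, miR-92a-3p, was not examined here. The share of all assays with as large an r was not computed for these relations. The gap went with the level of miR-451a (r = 0.96, p = 1e-05 by permutation; Spearman's rho = 0.92, p = 2e-05 by permutation, r = 0.93 without the 2 farthest mice). It also went with miR-144-3p (r = 0.90, p = 2e-05 by permutation; Spearman's rho = 0.84, p = 0.00048 by permutation, r = 0.86) and miR-16-5p (r = 0.91, p = 3e-05 by permutation; Spearman's rho = 0.89, p = 3e-05 by permutation, r = 0.87), neither of which is part of the index. It ran against miR-23a-3p (r = -0.80, p = 0.0014 by permutation; Spearman's rho = -0.77, p = 0.00304 by permutation, r = -0.70). The largest adjusted p among these 4 relations was 0.0014 for r and 0.00304 for rho.

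**Figure D4:**
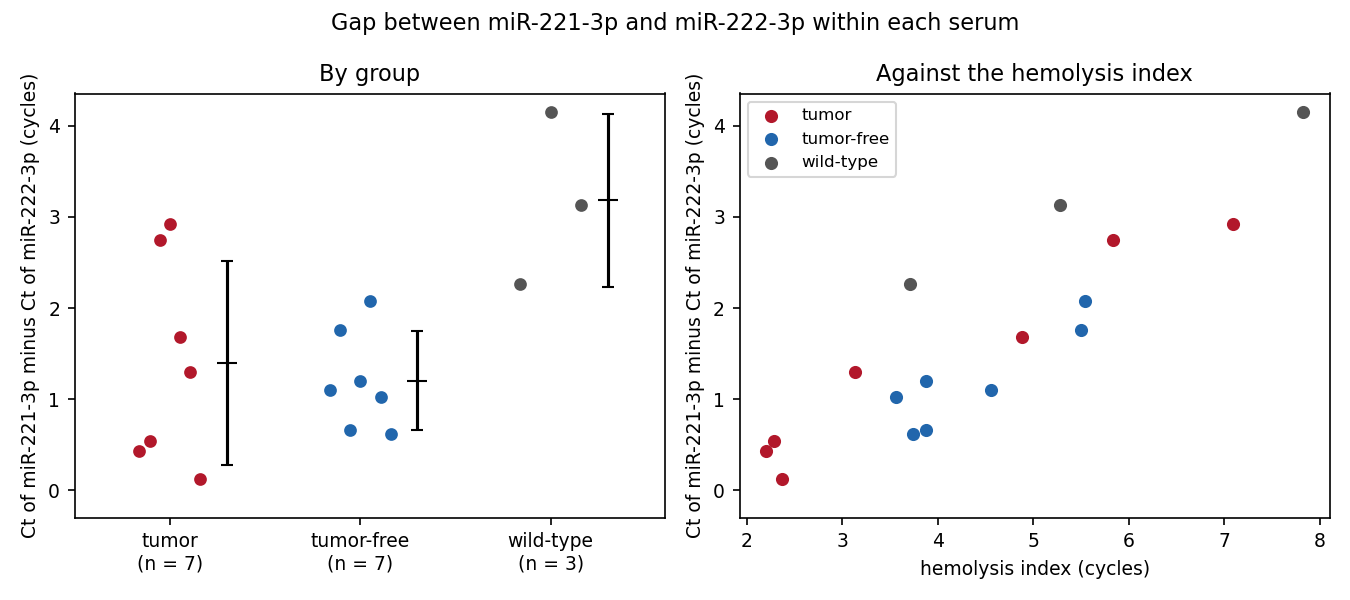
Ct of miR-221-3p minus Ct of miR-222-3p (vertical axes, cycles) in each mouse, by group with mean and SD in black (left) and against the hemolysis index in cycles (right). The 3 wild-type mice (2.26 to 4.15) lie above all 7 tumor-free mice, and within tumor and tumor-free mice the gap climbs with the index.

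At equal index, a linear model with group and index gave a gap difference of -1.33 cycles between tumor-free and wild-type mice (SE 0.19), -0.92 between tumor and wild-type mice (SE 0.20) and 0.40 between tumor and tumor-free mice (SE 0.14). These values are given without a test. The remaining gaps went with the index at r = 0.82 (miR-21a-5p minus miR-222-3p, p = 0.00043 by permutation, adjusted p = 0.00129; Spearman's rho = 0.88, p = 6e-05 by permutation, r = 0.79 without the 2 farthest mice), 0.70 (miR-21a-5p minus miR-210-3p, p = 0.00943 by permutation, adjusted p = 0.0141; Spearman's rho = 0.68, p = 0.00945 by permutation, r = 0.62) and -0.77 (miR-210-3p minus miR-221-3p, p = 0.0031 by permutation, adjusted p = 0.0062; Spearman's rho = -0.67, p = 0.0135 by permutation, r = -0.67). The gaps of miR-21a-5p to miR-221-3p (r = -0.43, p = 0.116 by permutation; Spearman's rho = -0.34, p = 0.212 by permutation, r = -0.31) and of miR-210-3p to miR-222-3p (r = 0.32, p = 0.318 by permutation; Spearman's rho = 0.40, p = 0.134 by permutation, r = 0.32) did not pass. The gaps that went with the index were thus those that set miR-222-3p or miR-210-3p against miR-21a-5p or miR-221-3p.

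With the index as a covariate in limma, the differences between tumor and tumor-free mice were 0.87 for miR-21a-5p (adjusted p = 0.0548), 1.12 for miR-210-3p (adjusted p = 0.0518), 0.56 for miR-221-3p (adjusted p = 0.22) and 0.96 for miR-222-3p (adjusted p = 0.0518). The SE of miR-222-3p was 0.28 with the index and 0.40 without it. Since the index holds miR-23a-3p as well as miR-451a, this covariate does not adjust for red blood cell RNA alone. In this fit 3.85% of all assays passed, and 0 of the 4 miRNAs. The same held against wild type, where 1.48% of all assays passed in tumor-free mice and 7.69% in tumor mice, with 0 of the 4 miRNAs in each. Against wild type at equal index, miR-222-3p differed by -0.97 in tumor-free mice (adjusted p = 0.191) and by -0.01 in tumor mice (adjusted p = 0.991). miR-210-3p differed by 0.64 in tumor mice (adjusted p = 0.408; 0.24 without the index), and by -0.49 in tumor-free mice (adjusted p = 0.537; -0.79 without it). miR-221-3p differed by 0.35 in tumor-free mice (adjusted p = 0.625; 0.57 without it).

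Other miRNAs linked to tumors were read beside the 4, from a list of 22 with 21 tested. The list also holds miR-92a-3p, a member of the red blood cell list, and miR-93-5p, among the assays closest to miR-222-3p (r = 0.93). Whether the members of the list vary independently of each other was not tested. Between tumor and tumor-free mice 11 of 21 lay above 0, none passed in limma (5 at an unadjusted p under 0.05), and the median difference was 0.14, as over all assays, of which 55.6% lay above 0 and 1.48% passed. The extremes were miR-10b-5p at 1.16 (adjusted p = 0.135) and miR-25-3p at 0.76 (adjusted p = 0.479) on one side, and miR-182-5p at -1.78 (adjusted p = 0.179) and miR-31-5p at -1.43 (adjusted p = 0.115) on the other.

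Against wild type the same list had its median below 0. In tumor-free mice 9 of 21 lay above 0 with a median of -0.60, against 50.9% of all assays above 0 and a median of 0.03. There 1 of 21 passed, against 0.592% of all assays: miR-196b-5p, whose gene lies among the Hox genes, fell by 2.46 (SE 0.54, limma adjusted p = 0.0357). miR-146a-5p, a regulator of inflammatory signaling, and miR-205-5p of epithelia had 2.32 (adjusted p = 0.0899) and 2.19 (adjusted p = 0.157), while miR-25-3p had -1.41 (adjusted p = 0.218). In tumor mice 7 of 21 lay above 0 with a median of -0.48, against 54.1% of all assays above 0 and a median of 0.19, and 3 of 21 passed, against 8.28%. There miR-146a-5p rose by 2.22 (SE 0.66, adjusted p = 0.0419), miR-31-5p fell by 2.03 (SE 0.56, adjusted p = 0.0275) and miR-196b-5p fell by 1.82 (SE 0.55, adjusted p = 0.0463), while miR-205-5p had 1.43 (adjusted p = 0.258).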

How the data were processed

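Serum miRNA was measured by SYBR Green PCR in 17 mice, grouped by the labels. Per the labels' protocols, RNA came from 50 µL of serum and 40 cycles were run on Exiqon serum panels I and II. The deposited score is the quantification cycle (Ct) per assay, not normalized per the name of the deposited table; the threshold setting, plate calibration and detection limit are not given in the sources used here. Empty cells were taken as not detected, and the highest Ct was 37.0. The table holds 8 control assays and 357 miRNA assays. Levels were the mean Ct of 252 shared assays minus each Ct. Tests needed a value in 5 tumor, 5 tumor-free and 2 wild-type mice or more, which left 338 with 160 missing values and set aside 19. Precision is limited by the number of mice, and Ct values carry no counting depth.

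limma 3.58.1 (R 4.3.3) was fitted to all 17 sera as 3 groups, two-sided, with Benjamini-Hochberg adjustment within each comparison, and was tested on simulated data. Ct differences between pairs were compared by two-sided exact permutation tests over 18 tests. Correlations used 100000 permutations within groups. All 4 sequences were matched to RefSeq by miRNA name. Python 3.11.15, numpy 2.4.6, pandas 2.3.3, scipy 1.17.1 and matplotlib 3.10.9 were used. The 4 miRNAs and the lists (other tumor-linked, red blood cell, platelet, hepatocyte) were chosen with earlier results of these data known. Named were the 4 miRNAs, the 3 assays closest to each, members of the tumor-linked and platelet lists that passed and the extremes of the tumor-linked list. Members of the hepatocyte list were counted and not named. Lists for white blood cells and endothelium were also read, with 0 members called by limma in each comparison. By their last decimals the assays fell into sets of 245 and 120, taken as the plates, except in tumor-free replicates 4, 5 and 7 and tumor replicate 1, which have 1 ending only. Alternatives changed the scaling, filter, detection limit, missing values, variance, test, index covariate, that split and each mouse in turn. Gap relations with the index were added after the values were seen.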

Additional observations from a re-analysis of the deposited data

Results flagged for a closer look

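Of 20 groups of 7 values examined for a lone mouse by Dixon's test, 1 passed, and chance alone gives about 1 in 20. The Ct of miR-21a-5p minus that of miR-222-3p was -5.22 cycles in tumor-free replicate 7, against -4.09 to -3.32 in the other 6 tumor-free mice. That mouse had the highest level of miR-21a-5p (7.20) and the lowest level of miR-222-3p (1.98) of the tumor-free mice. Its values come with 1 ending of the last decimals only, as in 3 other sera, and the part of that in the gap was not tested.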

How the results depend on the processing

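No paired analysis was possible because the replicate numbers follow the order of accession and pair no mice across groups. The column labels carry numbers that some mice share, with a meaning not given in the sources used here. Of these, 77 and 85 occur in both transgenic groups, and another occurs in more than 1 tumor-free mouse. Whether mice with the same number are independent of each other is not known. Within 77 (2 tumor mice, 1 tumor-free) and 85 (1 tumor mouse, 2 tumor-free), tumor minus tumor-free was 0.54 and 0.43 for miR-21a-5p, 0.50 and 1.30 for miR-210-3p, 0.93 and -0.03 for miR-221-3p and 0.81 and 1.25 for miR-222-3p, values chosen after seeing the data and not tested. Between tumor and tumor-free mice the 4 differences stayed above 0 and none passed under 15 alternatives and without each mouse in turn (0.16 to 1.01 for miR-21a-5p, 0.66 to 1.22 for miR-210-3p, 0.27 to 0.75 for miR-221-3p, 0.46 to 0.96 for miR-222-3p over the alternatives). Raw Ct, reference miRNAs and spike-ins shift all 4 alike, by less than these differences with the panel mean, so they could not turn a sign here. The number of assays called between tumor and tumor-free mice (5) was 0 with exact permutation tests, raw Ct, reference miRNAs, spike-ins and without the 4 sera with 1 ending (57, 17, 39, 14 and 30 at an unadjusted p under 0.05), 13 with the index as covariate and 2 to 10 without each mouse. Between tumor-free and wild-type mice (2) it was 0 with exact tests, raw Ct and spike-ins (85, 63 and 65 unadjusted), 1 with the panel median, reference miRNAs, the split as a block, robust variance and without the 4 sera, 4 with missing values at Ct 37, 5 with the index, 7 with own plate means and 1 to 9 without each mouse. Between tumor and wild-type mice (28) it was 0 with exact tests (45 unadjusted), 15 with raw Ct, 11 with reference miRNAs, 8 with spike-ins, 14 without the 4 sera and 10 to 39 without each mouse. miR-21a-5p between tumor and wild-type mice passed at 1.20 (adjusted p = 0.046) over the assays detected in all sera, at 1.17 (adjusted p = 0.0482) with a limit of Ct 35 and at 1.29 without tumor replicate 4, and ranged from 0.92 to 1.38 without each mouse. Exact tests of 7 mice against 3 cannot go below p = 0.00833, so at least 57 of 338 assays at that p would be needed for any to pass. Without each mouse, tumor against wild type ranged from 0.025 to 0.56 for miR-210-3p and -0.90 to -0.21 for miR-222-3p, and tumor-free against wild type from 0.029 to 0.49 for miR-21a-5p, with the extremes set by wild-type mice. Signs turned against wild type with raw Ct and spike-ins: in tumor-free mice -0.71 and -0.78 for miR-21a-5p and -0.45 and -0.52 for miR-221-3p, in tumor mice -1.14 and -0.88 for miR-210-3p, and with raw Ct alone -0.18 for miR-21a-5p and -0.19 for miR-221-3p. These scalings move assays with a value in all sera alike (-1.02 and -1.08 in tumor-free mice, -1.38 and -1.12 in tumor mice), so the place of each miRNA among the assays is nearly kept. Without each mouse, the gap of miR-221-3p to miR-222-3p between tumor and tumor-free mice was -0.065 to 0.40 cycles (below 0 without tumor replicate 3 or 4), and other gaps near 0 crossed it: -0.056 to 0.32 (miR-21a-5p to miR-210-3p), -0.30 to 0.15 (miR-21a-5p to miR-222-3p, 0.091 at equal index) and -0.39 to 0.0068 (miR-210-3p to miR-222-3p) between tumor and tumor-free mice, and for miR-21a-5p to miR-221-3p -0.023 to 0.48 in tumor-free and -0.29 to 0.22 in tumor mice against wild type. For r with the index, miR-222-3p had 0.36 with raw Ct and 0.35 with spike-ins, both lost, miR-210-3p had 0.72 with the level of miR-451a and 0.88 without the 4 sera, both past the threshold, and 0.54 to 0.86 without each mouse, and miR-221-3p had -0.71 to -0.40 without each mouse. Between the miRNAs, raw Ct and spike-ins gave r of 0.83 and 0.84 (miR-21a-5p and miR-210-3p), 0.77 and 0.79 (miR-21a-5p and miR-222-3p), 0.73 and 0.76 (miR-210-3p and miR-221-3p) and 0.74 and 0.77 (miR-221-3p and miR-222-3p), all past the threshold; these values keep the amount of RNA per serum. Without the 4 sera miR-221-3p and miR-222-3p had r = 0.065, and miR-21a-5p and miR-221-3p had 0.63, not past the threshold. Without each mouse r was -0.35 to 0.14 for miR-221-3p and miR-222-3p, -0.17 to 0.21 for miR-21a-5p and miR-222-3p and -0.27 to 0.032 for miR-210-3p and miR-221-3p.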
